A study of Mus musculus with 2 samples.

Results

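The 10 genes followed here mark fibroblasts: the receptors Pdgfra and Pdgfrb, the surface or secreted proteins Pi16, Fap and Thy1, and the transcription factors Twist1, Twist2, Prrx1, Tcf21 and Meox1. They were chosen by name, and every probe set that the platform annotation assigns to 1 of them alone was taken. This gave 20 of the 45101 probe sets on the array, and 10 genes of the 18193 that the array could be read for by name. The MSU pool held membrane RNA of 3 mice whose air pouches had received 2 mg monosodium urate (MSU) crystals in 1 ml PBS. The control pool held membrane RNA of 3 mice given 1 ml PBS alone. All mice were female Balb/C aged 6 to 8 weeks, and all membranes were dissected 9 h after the injection. The pouch is a cavity under the skin of the back, raised with 2 ml air over 7 days by the series record, although the study's methods give another volume and day. Each pool was hybridized to 1 array, so there were no replicates, no error could be attached to a value, and no test between the pools was possible.

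Fibroblasts are the main matrix-producing cells of loose connective tissue. The PDGF receptors are tyrosine kinases that pair up when a platelet-derived growth factor binds, and they pass growth and migration signals into the cell. Pdgfra is used as a general fibroblast marker, and Pdgfrb is found on fibroblasts and also on pericytes, the mural cells of small vessels. Twist1, Twist2 and Tcf21 are basic helix-loop-helix factors that bind DNA in pairs with E proteins, and Prrx1 and Meox1 are homeodomain factors of mesenchyme.

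Promoter sequences are shown for Pdgfra and Prrx1, which had several probe sets above the floors, all higher in the MSU pool as deposited, and for the paralogues Twist1 and Twist2, which lay on opposite sides of equal signal. Each window runs from 250 bases before to 50 bases after a start site (RefSeq, GRCm38.p6), 5′ to 3′ on the gene's strand. The windows are chr5:75152001-75152300 (plus strand) for Pdgfra, chr1:163313601-163313900 (minus strand) for Prrx1, chr12:33957421-33957720 (plus strand) for Twist1 and chr1:91801211-91801510 (plus strand) for Twist2. For Pdgfra and Prrx1 the annotated gene begins upstream of the window, so the window covers 1 of several start sites. Capitals mark matches, on either strand, to the E-box CANNTG bound by helix-loop-helix factors, the homeodomain core TAATTA, the TATA box TATAAA and the CCAAT box CCAAT.
Pdgfra: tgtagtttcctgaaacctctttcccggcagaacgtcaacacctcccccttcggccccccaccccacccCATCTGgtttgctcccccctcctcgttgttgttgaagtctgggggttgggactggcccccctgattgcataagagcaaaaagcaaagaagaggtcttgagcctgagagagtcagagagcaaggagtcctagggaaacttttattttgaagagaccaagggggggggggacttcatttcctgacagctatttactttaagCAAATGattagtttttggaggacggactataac
Prrx1: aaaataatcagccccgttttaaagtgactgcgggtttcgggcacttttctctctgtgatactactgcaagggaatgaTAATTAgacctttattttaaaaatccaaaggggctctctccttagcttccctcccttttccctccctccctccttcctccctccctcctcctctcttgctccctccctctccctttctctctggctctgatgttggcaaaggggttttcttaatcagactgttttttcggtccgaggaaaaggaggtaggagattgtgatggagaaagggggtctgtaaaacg
Twist1: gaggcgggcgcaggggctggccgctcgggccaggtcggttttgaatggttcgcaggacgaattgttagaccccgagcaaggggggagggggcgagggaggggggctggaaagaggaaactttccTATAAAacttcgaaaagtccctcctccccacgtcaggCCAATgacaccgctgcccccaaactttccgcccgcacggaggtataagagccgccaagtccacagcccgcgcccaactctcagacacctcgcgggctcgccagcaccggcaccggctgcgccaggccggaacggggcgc
Twist2: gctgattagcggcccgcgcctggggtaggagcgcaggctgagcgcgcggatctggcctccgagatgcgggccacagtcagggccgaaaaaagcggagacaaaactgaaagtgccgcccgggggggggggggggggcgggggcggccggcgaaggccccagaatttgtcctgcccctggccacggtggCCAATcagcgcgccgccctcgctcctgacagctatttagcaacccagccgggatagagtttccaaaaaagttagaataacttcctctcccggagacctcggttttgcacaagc

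Windows were found for 6 of the 10 genes, the other 2 being those of Pi16 and Tcf21. The E-box was matched in 2 of the 6 windows, those of Pdgfra and Pi16, and in 72.3% of all 32851 promoter windows. In Pdgfra the matches began at positions -182 and 18 from the start site. The homeodomain core was found in Prrx1 alone, starting at position -173, against 5.29% of all windows. Twist1 and Twist2 both held a CCAAT box, starting at positions -89 and -63 from the start site, as did Pi16, against 37.4% of all windows. The letters TATAAA occurred in Twist1 only, at position -126, against 13.6% of all windows. An AP-1 motif (TGANTCA) and an NF-κB motif had no match in any of the 6 windows, against 7.81% and 0.411% of all windows. The Twist windows held 27 CpG dinucleotides in Twist1 and 25 in Twist2, the Pdgfra window 5 and the Prrx1 window 6, and the median over all windows was 7. These matches describe letters in the windows and show no binding.

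The deposited values are linear signals, and a probe set is the array's unit of measurement, several short probes read as 1 signal. A signal was counted as detected where it reached a floor of 74.1 on the MSU array or of 64.6 on the control array. The floors were set so that as many probe sets lay above them as the study counted as detected. A ratio of MSU over control is called a fold where both signals reached their floor, and a bound where only 1 did. Of the 20 probe sets, 17 had a fold, and 3 lay below both floors. For a gene with several probe sets the one brightest on average (log2 scale) stands for it, and 9 of the 10 genes had a fold, the exception being Tcf21. Levels of different probe sets are not set against each other, since each has its own affinity.

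None of the 9 measured members reached a 2-fold difference between the pools at the deposited scaling. In all, 0 were higher in MSU by that size, against 3.70% of 11155 genes measured, and 0 were lower, against 4.29%. The largest differences were those of Fap, with a log2 ratio of -0.72, and Pdgfra, with one of 0.59. Of the 9, 4 had a log2 ratio above 0 and 5 below 0. The median log2 ratio of the 9 genes was -0.10, and that of all 10045 genes with a fold was -0.05. At the level of probe sets, 1 of the 17 was higher by 2-fold or more, a probe set of Pdgfra, against 4.11% of 21483 measured probe sets, and 0 were lower by that size, against 3.32%. At a size of 1.5-fold, Pdgfra was counted as higher and Fap as lower, where 8.65% and 14.4% of all measured genes were higher and lower by that size.

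**Figure D1:**
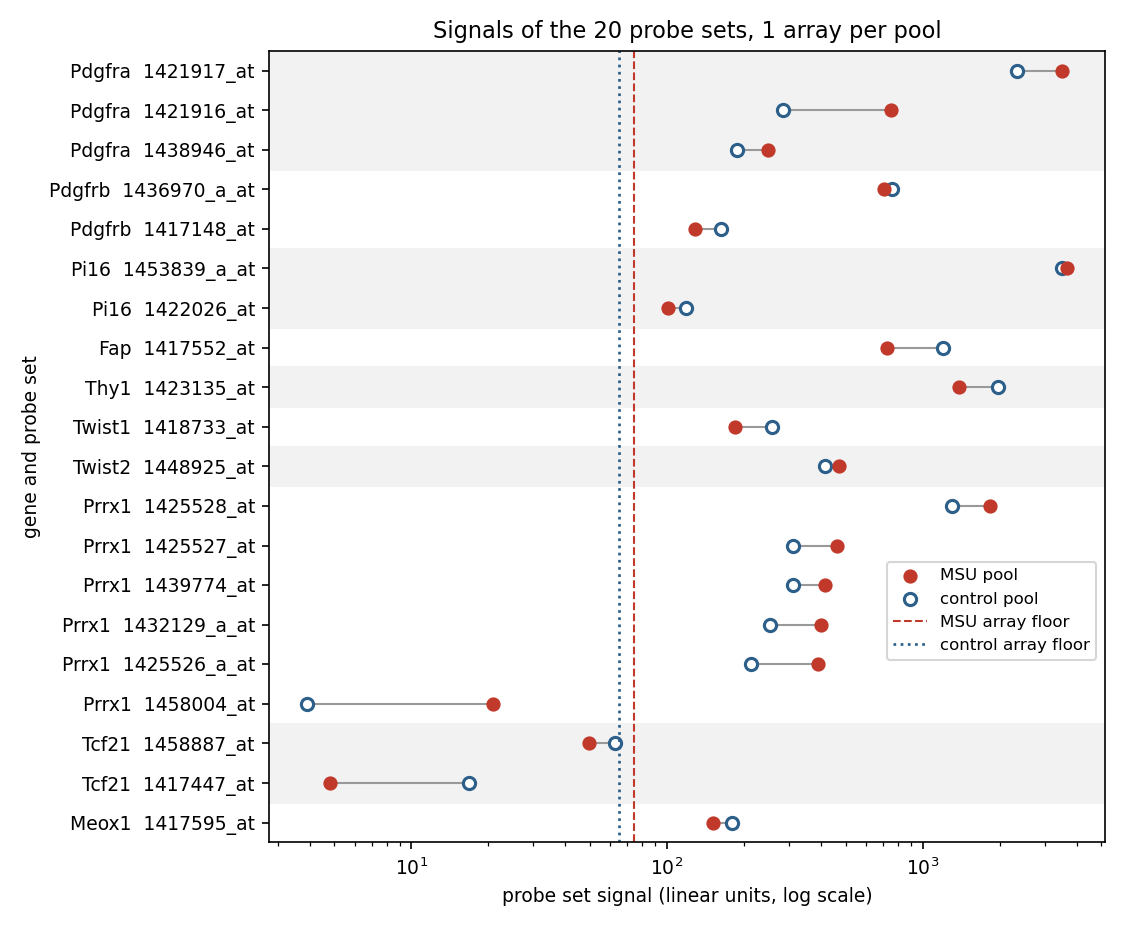
Signal of each of the 20 probe sets (x axis, linear units on a log scale) by gene and probe set (y axis), 1 array per pool, with MSU as filled red and control as open blue points and the detection floors (74.1 and 64.6) as vertical lines. All 3 probe sets of Pdgfra and the 5 of Prrx1 above the floors have the MSU point to the right, and both Tcf21 probe sets lie left of both floors.

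Of the PDGF receptors, as deposited, Pdgfra was higher in the MSU pool and Pdgfrb lay near equal signal on its brighter probe set. Pdgfra, the receptor for most PDGF chains, had a signal of 3513 in the MSU pool and 2340 in the control pool on its brightest probe set (1421917_at), a log2 ratio of 0.59. Its probe set 1421916_at had signals of 753 in the MSU pool and 285 in the control pool, or 2.65-fold higher. The third (1438946_at) had 248 in the MSU pool and 188 in the control pool, or 1.32-fold higher. All 3 probe sets were thus higher in the MSU pool, but by unequal amounts, and their log2 ratios spanned 1.01, from 0.40 to 1.40. Among the 955 genes with as many probe sets with a fold, the median span was 0.48, and 91.9% had a narrower span than Pdgfra. The size of its difference therefore depended on the probe set, and so did its direction once the arrays were scaled on spike-ins, where 1438946_at was at -0.06. By its brightest probe set, Pdgfra lay above 91.7% of all genes with a fold.

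Pdgfrb, the receptor that binds the B and D chains, had signals of 708 in the MSU pool and 757 in the control pool on its brighter probe set (1436970_a_at), a log2 ratio of -0.10. Its other probe set (1417148_at) had 128 in the MSU pool and 162 in the control pool, a log2 ratio of -0.34. The brighter lay near equal signal, and 45.9% of all genes with a fold had a lower ratio. The dimmer was 1.27-fold lower, at 1.73 and 2.51 times the floor of the MSU and the control array. Scaled on the spike-ins, the 2 probe sets were at -0.55 and -0.80, where the median of all genes with a fold was -0.51. The difference between the 2 receptors was not tested, since each rests on 1 array per pool.

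The ligands of these receptors lay between 2-fold lower and 2-fold higher where a fold could be given. Pdgfa had a log2 ratio of 0.18, Pdgfb of -0.08 and Pdgfc of -0.50, at signals of 666 in the MSU pool and 945 in the control pool. Pdgfd was above the floor in the control pool alone, with signals of 65.5 in the MSU pool and 136 in the control pool, and was at least 1.84-fold lower. Of 12 adaptors and effectors of activated PDGF receptors, all 12 were measured, none was past 2-fold in either direction, and the median log2 ratio was 0.10. The ubiquitin ligase Cbl, which marks activated receptors for breakdown, was 1.83-fold higher, and the kinase Src 1.79-fold higher. Pik3r1, the regulatory subunit of PI3 kinase, was 1.62-fold lower. These signalling genes are used by many cell types, leukocytes included.

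Of the surface and secreted proteins, Fap and Thy1 were lower in the MSU pool and Pi16 was nearly equal. Fap, a serine protease of activated fibroblasts, had 1 probe set (1417552_at), with signals of 726 in the MSU pool and 1199 in the control pool. It was 1.65-fold lower, a log2 ratio of -0.72, and 9.27% of all genes with a fold lay below it. Thy1, a membrane glycoprotein of fibroblasts, neurons and T cells, also had 1 probe set (1423135_at), at 1389 in the MSU pool and 1972 in the control pool. It was 1.42-fold lower. Pi16, a secreted or anchored protein that marks adventitial fibroblasts, had signals of 3659 in the MSU pool and 3500 in the control pool on its brighter probe set (1453839_a_at), a log2 ratio of 0.06. Its dimmer probe set (1422026_at) had 101 in the MSU pool and 119 in the control pool, a log2 ratio of -0.23, at 1.37 and 1.84 times the floor of the MSU and the control array. The 2 probe sets of Pi16 thus gave opposite signs, both close to equal signal.

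Relatives of Fap and companions of Pi16 were set beside them. Of 6 other enzymes of the Fap family, 5 were measured and none was past 2-fold in either direction. Dpp4, the closest relative of Fap and a surface peptidase that also marks Pi16-bearing fibroblasts, was 1.39-fold lower, with signals of 302 in the MSU pool and 419 in the control pool. Dpp9, a cytosolic peptidase, was 1.26-fold higher. Of 10 named markers that accompany Pi16 in adventitial fibroblasts, all were measured, 3 were lower by 2-fold or more and 0 were higher by that much. The membrane protein Cd248 (endosialin), shared with pericytes, had signals of 443 in the MSU pool and 1218 in the control pool and was 2.75-fold lower. The semaphorin Sema3c was 2.67-fold lower and the microfibril protein Mfap5 2.11-fold lower. Dermatopontin (Dpt), at 4799 in the MSU pool and 5419 in the control pool, had a log2 ratio of -0.18, and Clec3b one of -0.07. The list's median log2 ratio was -0.46, against 0.06 for Pi16 itself.

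**Figure D2:**
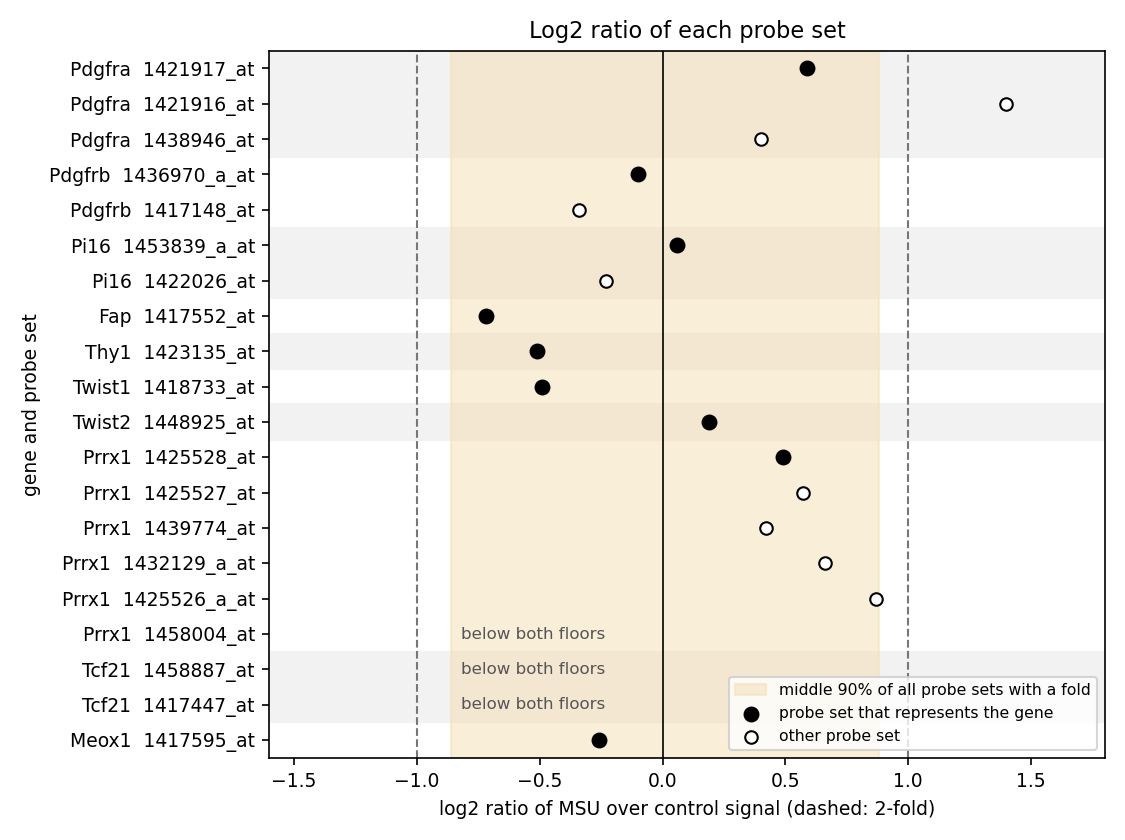
Each probe set (y axis) by its log2 ratio, MSU over control (x axis), 1 array per pool, with filled points for the probe set that represents the gene, open points for the others, dashed lines at 2-fold and a shaded band for the middle 90% of all probe sets with a fold. The Pdgfra probe set at 1.40 lies outside the band (-0.86 to 0.88), and the other 16 lie inside it.

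Of the transcription factors, Prrx1 was higher in the MSU pool on each probe set above the floors. Prrx1, a homeobox factor of limb and connective tissue mesenchyme, had a signal of 1834 in the MSU pool and 1307 in the control pool on its brightest probe set (1425528_at), which is 1.40-fold higher. The other 4 probe sets above the floors were 1.34- to 1.83-fold higher, the largest being 1425526_a_at with 389 in the MSU pool and 212 in the control pool. Its last probe set (1458004_at) lay below both floors, at 20.8 in the MSU pool and 3.92 in the control pool, and has no fold. The 5 log2 ratios ran from 0.42 to 0.87, a span of 0.45. Of the 117 genes with as many probe sets with a fold, 20.5% had a narrower span, and the median span was 0.65. Probe sets of 1 gene share the pools and the arrays, so their agreement is no replication between mice.

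The paralogues Twist1 and Twist2, which repress differentiation of mesenchymal cells, lay on opposite sides of equal signal. Twist1 had signals of 184 in the MSU pool and 258 in the control pool (1418733_at) and was 1.40-fold lower. Twist2 had 472 in the MSU pool and 415 in the control pool (1448925_at) and was 1.14-fold higher. Each has 1 probe set, so that no second measurement of either was at hand. Meox1, a homeobox factor of somites that is also induced in activated fibroblasts, had signals of 151 in the MSU pool and 180 in the control pool (1417595_at), a log2 ratio of -0.26. Its signals were 2.03 and 2.78 times the floor of the MSU and the control array. Tcf21, a factor of fibroblast and visceral mesenchyme progenitors, was below both floors on both probe sets. The brighter (1458887_at) had 49.4 in the MSU pool and 62.8 in the control pool, where the control floor is 64.6, and the dimmer (1417447_at) had 4.80 in the MSU pool and 16.7 in the control pool. No fold is given for Tcf21.

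The partners and inhibitors of the helix-loop-helix factors were unevenly placed. All 3 E proteins, the dimer partners of Twist and Tcf21, were a little lower in the MSU pool, with log2 ratios of -0.25 for Tcf3, -0.31 for Tcf4 and -0.18 for Tcf12. The Id proteins lack a DNA-binding region and hold E proteins back from their partners. Id2 had signals of 686 in the MSU pool and 257 in the control pool and was 2.67-fold higher, the only 1 of the 7 genes higher by 2-fold or more, and 0 were lower by that much. Scaled on the spike-ins, Id2 was at a log2 ratio of 0.96 and no longer past 2-fold. Id3 was 1.85-fold higher and Id1 1.31-fold higher, and Id4 was at least 1.40-fold lower. Id2 is also expressed in leukocytes.

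Zinc finger factors that act with Twist in epithelial to mesenchymal transition had 1 higher and 1 lower member in each family. Snai1 was 2.10-fold higher and Zeb2 2.60-fold higher, with Zeb2 at 1494 in the MSU pool and 574 in the control pool. Scaled on the spike-ins, Snai1 and Zeb2 were at log2 ratios of 0.62 and 0.92, under 2-fold. Snai2 was 1.86-fold lower, at 325 in the MSU pool and 606 in the control pool, and Zeb1 1.54-fold lower. On the spike-in scale Snai2 and Zeb1 were at log2 ratios of -1.36 and -1.08. There 2 of the 4 factors were lower by 2-fold or more and 0 were higher by that much. Of all measured genes, 1787 of 11282 were lower by that size on that scale. Zeb2 is also a factor of macrophages and other myeloid cells. Of 16 other mesenchymal factors with a named probe set, 11 were measured, 1 was lower by 2-fold or more and 0 were higher by that much. That gene was Osr2, at least 2.02-fold lower. Prrx2, the paralogue of Prrx1, had signals of 149 in the MSU pool and 285 in the control pool and was 1.91-fold lower, opposite in sign to Prrx1. Scaled on the spike-ins, Prrx2 was at a log2 ratio of -1.39, and 2 of 10 measured factors of this list were lower by 2-fold or more. Meox2, the paralogue of Meox1, was 1.42-fold lower, and Runx1, a factor of blood cells and mesenchyme, 1.53-fold higher.

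Other fibroblast genes showed that fibroblast transcripts were well measured in both pools. All 18 genes of fibroblasts in general were measured, 1 was lower by 2-fold or more and 0 were higher by that much, with a median log2 ratio of -0.14. The collagens Col1a1 and Col3a1 were 1.33- and 1.29-fold higher, and podoplanin (Pdpn), a glycoprotein of lining fibroblasts and lymphatic vessels, was 1.56-fold higher. Others were lower by less than 2-fold, among them Gsn (1.42-fold), Lum (1.39-fold) and Serpinf1 (1.36-fold). The gene lower by 2-fold or more was Mfap4, a microfibril-associated protein. Its signals were 252 in the MSU pool and 1125 in the control pool, or 4.46-fold lower. Of 9 measured genes of activated fibroblasts, to which Fap is close by function, 1 was higher by 2-fold or more and 3 were lower by 2-fold or more. Inhba, the activin A subunit, was 3.23-fold higher, although macrophages also make it. Ccn2 (connective tissue growth factor) was 2.71-fold lower, Lrrc15 2.48-fold lower and smooth muscle actin (Acta2) 2.15-fold lower. The protease inhibitor Timp1 was 1.65-fold higher, and Postn and Tnc, both matrix proteins, had log2 ratios of -0.20 and -0.28.

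**Figure D3:**
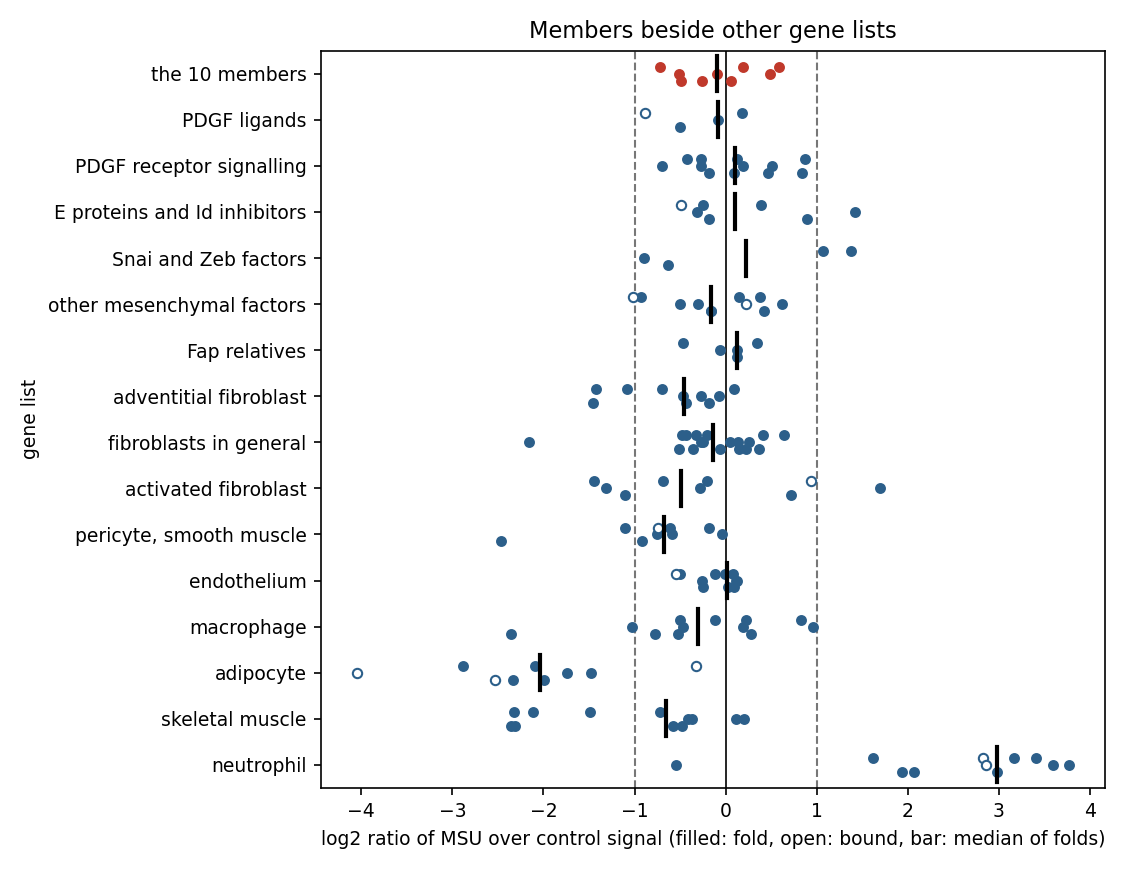
Measured genes of 16 lists (y axis) by log2 ratio, MSU over control (x axis), with filled points for folds, open points for bounds against the floor, black bars for medians over the folds and dashed lines at 2-fold. The 10 fibroblast genes (red, 9 with a fold) lie between -0.72 and 0.59, the adventitial list reaches -1.46, and the neutrophil list has a median of 2.98 (2.01 with a floor at the 15000th highest signal, 2.10 with the floors as a pseudocount).

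The pools were whole membranes, in which fewer cells of a type and less RNA per cell cannot be told apart. The study names a further possibility, that RNA of incoming cells or of strongly induced genes dilutes the mRNAs of resident cells. The part of such dilution here was not tested. Transcripts of other cells differed between the pools. Of 11 measured neutrophil markers, 10 were higher by 2-fold or more, and their summed signal was 24799 in the MSU pool and 3185 in the control pool. Of 9 measured adipocyte markers, 8 were lower by 2-fold or more, with sums over the 10 named of 4681 in the MSU pool and 19967 in the control pool. Of 12 skeletal muscle markers, 5 were lower by 2-fold or more, and the sums were 27220 in the MSU pool and 42743 in the control pool. By histology the study saw no adipocytes or skeletal muscle in dissected membranes. It found that control membranes still varied in resistin and dystrophin mRNA, and it proposed that small remnants of fat and muscle stayed on them. RNA was pooled to correct for such variation. On the arrays resistin (Retn) was 3.33-fold lower and dystrophin (Dmd) 1.39-fold lower. The part of such remnants in the adipocyte and muscle values was not tested. Of 6 measured epithelial markers, 3 were lower by 2-fold or more, with sums over the 8 named of 608 in the MSU pool and 1654 in the control pool. Of 12 macrophage markers, 2 were lower by 2-fold or more and 0 were higher by that much, with sums of 29732 in the MSU pool and 30841 in the control pool. The part of these differences in the values of the fibroblast genes was not tested.

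Some members are shared with other cells, whose markers were read beside them. For Pdgfrb, 9 of 12 pericyte and smooth muscle markers were measured, 2 were lower by 2-fold or more, and the median log2 ratio was -0.68, with sums over the 12 of 3815 in the MSU pool and 7780 in the control pool. The pair past 2-fold was Tagln (transgelin), 5.53-fold lower, and Acta2. The pericyte markers Rgs5 and Abcc9 had log2 ratios of -0.61 and -0.92, and Cspg4 was at least 1.67-fold lower. Kcnj8 had a log2 ratio of -0.04, with signals not far above the floors (89.4 in the MSU pool and 92.1 in the control pool). Myh11, Cnn1 and Lmod1 were below both floors. For Thy1, 1 of 10 named T cell markers was measured, Cd8a with a log2 ratio of -0.01. The CD3 chains Cd3d, Cd3e and Cd3g, which belong to the T cell receptor complex, lay below both floors, with signals of at most 17.5 in the MSU pool and 38.4 in the control pool. Of 7 neuronal markers, 2 were measured, and the neurofilaments Nefl, Nefm and Nefh lay below both floors. Sums over these lists were 278 in the MSU pool and 319 in the control pool for T cells, and 270 in the MSU pool and 332 in the control pool for neurons. These sums include 9 T cell and 5 neuronal genes below both floors and give no level of these cells. For Meox1, which is also found in endothelium, 11 of 12 endothelial markers were measured, none was past 2-fold in either direction, and the median log2 ratio was 0.01, with sums of 1872 in the MSU pool and 2047 in the control pool. Of 4 measured Schwann cell markers, none was past 2-fold in either direction, and the sums over the 5 named were 4054 in the MSU pool and 4041 in the control pool. The part of these cells in the signals of the members was not tested.

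The direction of 2 members, Pi16 and Twist2, depended on how the arrays were scaled. The hybridization spike-ins are bacterial and phage transcripts added in equal amounts before hybridization, and each of their 18 probe sets read higher in MSU (median 1.37-fold). Scaling on them lowers each log2 ratio by 0.46 and puts the median of all genes with a fold at -0.51. Relative to that median the order of the members does not move. On that scale Pdgfra had a log2 ratio of 0.13 and Prrx1 of 0.03, both above 0 on the probe set that stands for the gene, and Twist2 and Pi16 turned to -0.27 and -0.39. The probe sets 1438946_at of Pdgfra and 1439774_at of Prrx1 turned to -0.06 and -0.04, so neither gene was higher on every probe set, and 1421916_at of Pdgfra, at 0.95, was no longer past 2-fold. Of 9 measured pericyte and smooth muscle markers, 7 were lower by 2-fold or more on that scale, against 2 as deposited. Of the other genes named as higher, Pdgfa, Id1, Dpp9, Col1a1 and Col3a1 also turn lower on that scale, since their log2 ratios were under 0.46. Fap, at -1.18, became the only 1 of the 9 measured members lower by 2-fold or more. Over all measured genes, 1787 of 11282 were lower by that size on that scale, against 478 of 11155 as deposited. Pi16 was also at -0.01 when each array was scaled to its median and at -0.08 by the median of its probe sets, so it had no settled sign.

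**Figure D4:**
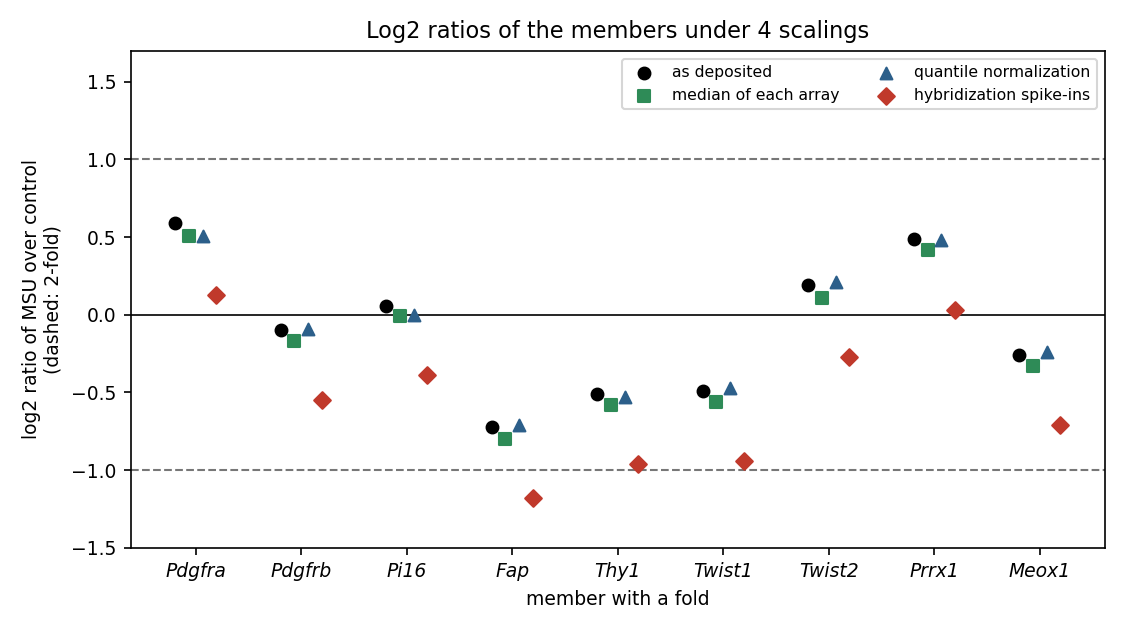
Log2 ratio of MSU over control (y axis) of the 9 members with a fold (x axis) under 4 scalings, 1 array per pool, with dashed lines at 2-fold. Under scaling on the hybridization spike-ins (red diamonds) all members are lower by 0.46, and Fap, at -1.18, passes 2-fold, while Pdgfra and Prrx1 keep log2 ratios above 0 on the probe set plotted.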

How the data were processed

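RNA of 3 membranes per condition was pooled and hybridized to 1 array per pool, 2 arrays in all. The deposited intensity values are linear probe set signals that the authors computed with Affymetrix GCOS (MAS5 in the submitters' processing notes, version not given in the sources used here). Both arrays had a mean of 150 once 2% of values at each end were trimmed. The values were used as deposited, and 64 control probe sets were left out.

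Gene names came from the platform annotation, with symbols brought up to date by Entrez number (RefSeq, GRCm38.p6). A single gene was named for 34958 probe sets, more than 1 for 932, and 9211 were unnamed here. The detection floor of each array followed the number of probe sets that the study counted as detected. It is a rule on signal alone and can depart from the Affymetrix detection call of a given probe set. No test was run, since each condition has 1 array, and 2-fold is a fixed size. The number of arrays limits the precision.

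The members and the 19 gene lists (195 genes, 183 with a named probe set) were chosen with earlier results of these data known. All members are named, and of other lists mainly those with the largest ratios; further list genes were chosen after their values were seen. Alternatives were other scalings, floors, a pseudocount, other choices of probe set and other sizes. The median over the members' probe sets was added after seeing the data. The fold step and motif search were tested on simulated data. Python 3.11.15, numpy 2.4.6, pandas 2.3.3 and matplotlib 3.10.9 were used.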

Additional observations from a re-analysis of the deposited data

How the results depend on the processing

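The log2 ratios of the 9 members with a fold moved by less than 0.33, the pooled SD between probe sets of a gene, under all alternatives run except scaling on the hybridization spike-ins, which moved all 9. Under that scaling the median of the members was -0.55 in place of -0.10, and 1 member (Fap) was at least 2-fold lower in place of 0. Of all measured genes, 1787 of 11282 were at least 2-fold lower, in place of 478 of 11155. In addition, 4 lists in place of 2 had a median log2 ratio at or below -1. The spike-in scaling puts the share of higher genes among all those at least 2-fold apart at 10.1%, against 46.4% as deposited. Floors added as a pseudocount put it at 60.4%, with 333 genes higher and 218 lower in place of 413 and 478, and no floor gives 1623 and 1724. At a size of 1.5-fold, 1 member was higher and 1 lower. Over the 17 probe sets with a fold the median was 0.19, a sign opposite to that over genes, since Prrx1 and Pdgfra have several probe sets each. Only 1 list had a median at or below -1 with no floor or with the pseudocount, where the epithelial list was at -0.99 and -0.41. The count was also 1 with a floor at the 15000th highest signal and without probe sets ending in _x_at and _s_at. In those settings the epithelial list had fewer than 3 folds, so no median was given for it. Tcf21 has no value except with no floor or the pseudocount. No paired analysis was possible because each group has 1 array. Values near the floor, such as those of Meox1 and the dimmer Pi16 and Pdgfrb probe sets, are the least precise.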
